A study of Mus musculus with 2 samples.

Results

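The Hedgehog group held 9 genes, namely the ligand genes Shh, Dhh and Ihh, the receptor gene Ptch1, the transducer gene Smo, the transcription factor genes Gli1, Gli2 and Gli3, and Hhip, which encodes a ligand-trapping membrane protein. Its members were chosen by gene name among the non-control probes of both arrays, and 9 of 36493 gene names on the array belonged to it. They were read by 12 probes on 21 spots of each array, with 6 genes on 1 probe and 3 genes (Ptch1, Smo and Hhip) on 2 probes. RNA came from neural stem and progenitor cells (NSPCs) derived from mouse embryonic stem cells by way of embryoid bodies and kept as tertiary neurospheres, which are floating balls of cells, to passage 2 and day 18 after the embryoid body stage. The miR-153 array held cells overexpressing the microRNA miR-153, and the control array held cells labelled as the overexpression control. Each group was 1 array of total RNA, so the values below come with no p-value and no spread between cultures. The embryonic stem cell line and the way in which miR-153 was overexpressed are not given in the sources used here.

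Hedgehog ligands bind Ptch1, which otherwise holds Smo inactive. Released Smo acts at the primary cilium on the Gli proteins, of which Gli2 is the main activator and Gli3 the main repressor, and Gli1, Ptch1 and Hhip are themselves switched on by the pathway. In the neural tube the pathway sets ventral identities, and in later neural progenitors it is known for sustaining their division.

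The microRNA that separates the groups is shown first, because a microRNA pairs with messages through its seed. The labels name miR-153 without an arm, so both RefSeq mature sequences of mouse Mir153 (GRCm38.p6, chromosome 12, plus strand) are given, with the seed, bases 2 to 8, in capitals.
mmu-miR-153-3p: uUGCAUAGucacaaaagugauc
mmu-miR-153-5p: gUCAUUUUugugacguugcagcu
The 3p arm lies at 117250860 to 117250881 and the 5p arm at 117250821 to 117250843, and their seeds differ. Mature miR-153 was not measured here.

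Of the 9 Hedgehog genes, 8 were well above background on both arrays by the scanner software's own mark (hereafter, cleared background), and none of these differed by 2-fold on its brightest probe. The exception was Dhh, which cleared background in control cells alone. In the main setting its bound was 35.6-fold lower in miR-153 cells, read from 1 spot on each array. The bound depended on the processing and was 8.20-fold with normexp background correction. The members that pathway activity induces, Gli1, Ptch1 and Hhip, differed by 0.20, -0.12 and 0.29 log2 units. A level here is log2 of the processed signal over the 75th percentile of its array, and a difference is the level on the miR-153 array minus that on the control array. The call was a fixed rule of size, at least 2-fold, and a gene above background on 1 array was called where its lower bound reached 2-fold. By that rule 0 of the 9 members were higher and 1 was lower, where 9.75% of the 23130 genes well above background on at least 1 array were higher and 12.1% were lower. The median difference was 0.16 over the 8 measured members and -0.11 over all 20477 genes measured on both arrays, and 6 of the 8 lay above the median of all genes.

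Both arrays read many genes well. Of 59305 non-control spots, 55.6% cleared background on the miR-153 array and 52.5% on the control array, and no spot was saturated. The median local background was 41.5 intensity units on the miR-153 array and 42 on the control array. The 75th percentile of signal was 549 on the miR-153 array and 435 on the control array, so a probe with equal signal on both has a negative difference. Neural progenitor markers fitted the label, since all 8 of a list of such genes (Sox2, Nes, Sox1, Pax6, Fabp7, Prom1, Msi1 and Vim) were well above background on both arrays. Their summed level, in multiples of the 75th percentile of signal, was 654 on the miR-153 array and 705 on the control array. Such a sum leans on the brightest probes and is compared between arrays only. Within the list Prom1 (1.74, and 1.95 on its other probe) and Sox1 (1.15, and 0.40 on its other probe) passed 2-fold upward. Of all genes measured on both arrays, 9.22% did so. None of the 8 passed 2-fold downward, though Nes (-0.95), Vim (-0.72) and Pax6 (-0.69, with 1 of its 2 probes measured on both arrays) lay below 0. The median difference was 0.17. Repeat spots of 250 probes gave a median SD of 0.072 for the log2 difference, or 0.28 for the 8 such probes with a mean level below -3. Different probes of a gene parted more. Over 3687 genes the differences of the 2 brightest probes had a median gap of 0.30 and a 90th percentile of 1.09.

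**Figure D1:**
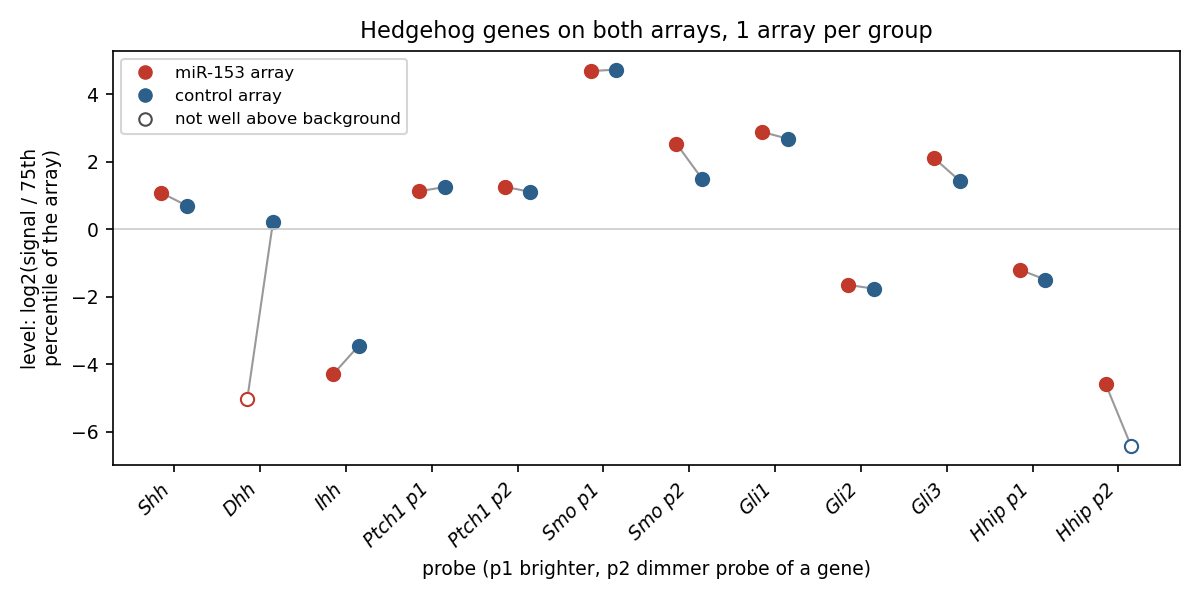
Level of every probe of the 9 Hedgehog genes on the miR-153 array (red) and the control array (blue), as log2 of signal over the 75th percentile of the array, with open circles for spots not well above background and a line joining the arrays. Dhh stands at -5.03 on the miR-153 array and 0.22 on the control array, and most other pairs are nearly level. Heights of different probes are not comparable with each other.

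Among the ligands, Dhh differed most. Dhh encodes desert hedgehog, the ligand known from Schwann cells, endothelial cells and Sertoli cells. Its probe (chromosome 15, 98723465 to 98723524 on mm9, minus strand, position 2300 of the transcript NM_007857; all probe positions below are on mm9 too) had a processed signal of 16.8 intensity units on the miR-153 array and 505 on the control array. The spot itself read 50.8 against a local background of 31 on the miR-153 array, and 578 against 30 on the control array. It was thus still brighter than its surroundings on the miR-153 array, where the scanner software marked it as positive and significant but not as well above background. The level of Dhh was -5.03 on the miR-153 array and 0.22 on the control array, a gap wider than that of any other member. The lower bound sets the control level against -4.94, the dimmest level that still cleared background on the miR-153 array. Normexp background correction put the same bound at 8.20-fold, and the measured ratio, with no filter on dim probes, was 38.0-fold. The bound of the difference was -5.15, and ran from -5.16 to -4.91 over the other alternatives that kept the gene. Dhh has 1 probe on the array and 1 spot of it, so neither repeat spots nor another probe can check the value. In RNA of whole cultures, fewer cells expressing a gene and less RNA per cell cannot be told apart.

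Markers of cells known to express Dhh were read on the same arrays. Of 5 Schwann lineage markers described here, Erbb3, the neuregulin receptor gene of that lineage, did not clear background on either array. Sox10 was higher on the miR-153 array with a difference of 1.54, as were Egr2 (4.02) and Ngfr (1.23), while Pmp22 was lower (-2.20, and -0.44 on its other probe). The summed level of these 5 genes was 12.6 on the miR-153 array and 8.08 on the control array, so it ran opposite to Dhh. Of 7 endothelial markers, Cdh5, Tek, Tie1 and Cldn5 did not clear background on either array, and the 3 that were measured, Kdr, Emcn and Pecam1, differed by -0.68, -0.54 and -0.26. The summed endothelial level was 10.5 on the miR-153 array and 16.8 on the control array. Nearly all of it came from the Kdr probe, with a level of 3.37 on the miR-153 array and 4.05 on the control array. The sum therefore describes 1 gene rather than the list. The part of these cell types in the Dhh value was not tested.

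The start of the Dhh gene is shown because this gene carries the one called difference, and those of Ptch1 and Hhip because they are the standard readouts of the pathway. Each sequence is the 250 bases before the RefSeq start on GRCm38.p6, minus strand, and capitals mark CCACCC or its reverse complement GGGTGG, the core of the Gli binding motif GACCACCCA.
Dhh, chr15:98898541-98898790: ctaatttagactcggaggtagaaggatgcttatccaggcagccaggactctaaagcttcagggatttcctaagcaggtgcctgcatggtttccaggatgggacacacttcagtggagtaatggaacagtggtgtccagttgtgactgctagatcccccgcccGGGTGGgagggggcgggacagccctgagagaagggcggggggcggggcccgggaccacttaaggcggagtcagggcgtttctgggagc
Ptch1, chr13:63565736-63565985: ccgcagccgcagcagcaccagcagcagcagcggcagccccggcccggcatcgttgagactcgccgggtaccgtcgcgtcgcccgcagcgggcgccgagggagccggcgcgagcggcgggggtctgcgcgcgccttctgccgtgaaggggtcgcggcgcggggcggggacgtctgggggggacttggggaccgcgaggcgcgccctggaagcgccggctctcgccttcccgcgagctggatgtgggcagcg
Hhip, chr8:80058009-80058258: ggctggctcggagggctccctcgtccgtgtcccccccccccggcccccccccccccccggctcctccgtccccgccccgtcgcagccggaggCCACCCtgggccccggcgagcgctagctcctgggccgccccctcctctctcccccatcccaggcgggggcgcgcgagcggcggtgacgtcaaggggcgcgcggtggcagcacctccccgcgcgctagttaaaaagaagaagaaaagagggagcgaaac
RefSeq promoters were matched for 7 of the 9 members. The whole motif GACCACCCA, searched on both strands, was in 0 of these 7 windows and in 0.225% of all 32851 windows of the same length. Its core CCACCC, which every whole motif contains, was in 6 of the 7 (Dhh, Gli2, Gli3, Hhip, Ihh and Smo) and in 28.1% of all windows. The member windows were rich in G and C, at 59.6% in Dhh and up to 78.4% in Ptch1, where the mean of all windows was 53.2%. The match describes letters in this window only.

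Shh, the ligand of the floor plate and notochord, was read by 1 probe on 10 spots (chromosome 5, 28783983 to 28784042, minus strand). Its signal on the miR-153 array had a lowest value of 1087, a median of 1154 and a highest of 1235 intensity units, and on the control array 670, 699 and 774. The levels were 1.08 ± 0.06 on the miR-153 array and 0.69 ± 0.07 on the control array (SD over 10 spots of 1 array each). The spots of the arrays did not overlap, and the difference per spot ran from 0.33 to 0.49 with a mean of 0.39, or 1.31-fold higher. That exceeds the spread of repeat spots but stays short of 2-fold, and repeat spots carry no information on other cultures. Floor plate markers were read beside it. Of 6 measured in both cell groups, 3 passed 2-fold upward, Foxa2 (1.44), Ntn1 (1.38) and Spon1 (1.27), none passed it downward, and the median was 1.13, where 9.22% of all genes measured on both arrays were higher. Lmx1b went the other way on both of its probes, at -0.76 and -0.69. The other probes of Ntn1 and Spon1 were at 0.87 and 0.62. The summed level of the floor plate list was 42.3 on the miR-153 array and 17.5 on the control array, and its part in the Shh value was not tested.

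Ihh, the ligand of cartilage and of visceral and gut endoderm, was dim on both arrays (chromosome 1, 74991906 to 74991965, minus strand). The spot read 63.7 over a background of 45.5 on the miR-153 array and 75.7 over 41 on the control array. The level was -4.30 on the miR-153 array and -3.45 on the control array, and the difference of -0.85 (1.80-fold lower) shrank to -0.55 with normexp and to -0.52 after lowess. Most endoderm markers were too dim to measure, with Afp, Apoa1, Apob, Epcam and Sox17 not well above background on either array, and Rhox5 lower at -2.95. Ttr went the other way, with a level of -3.36 on the miR-153 array, and did not clear background on the control array, where its measured level was -6.26. Its bound of 0.98 fell short of 2-fold. The summed level of endoderm markers that cleared background was 0.145 on the miR-153 array and 0.368 on the control array. It held Rhox5 and Ttr on the miR-153 array but Rhox5 alone on the control array, so the sums cover different genes. Chondrocyte markers split, with Col2a1 (2.04) and Col9a1 (1.27) higher, Acan (-1.43) lower and Col10a1, Comp, Matn1 and Matn3 not well above background on either array. Of the 2 probes of Col9a1, 1 was measured on both arrays. The summed chondrocyte level was 7.88 on the miR-153 array and 2.26 on the control array. The part of both lists in the Ihh value was not tested.

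**Figure D2:**
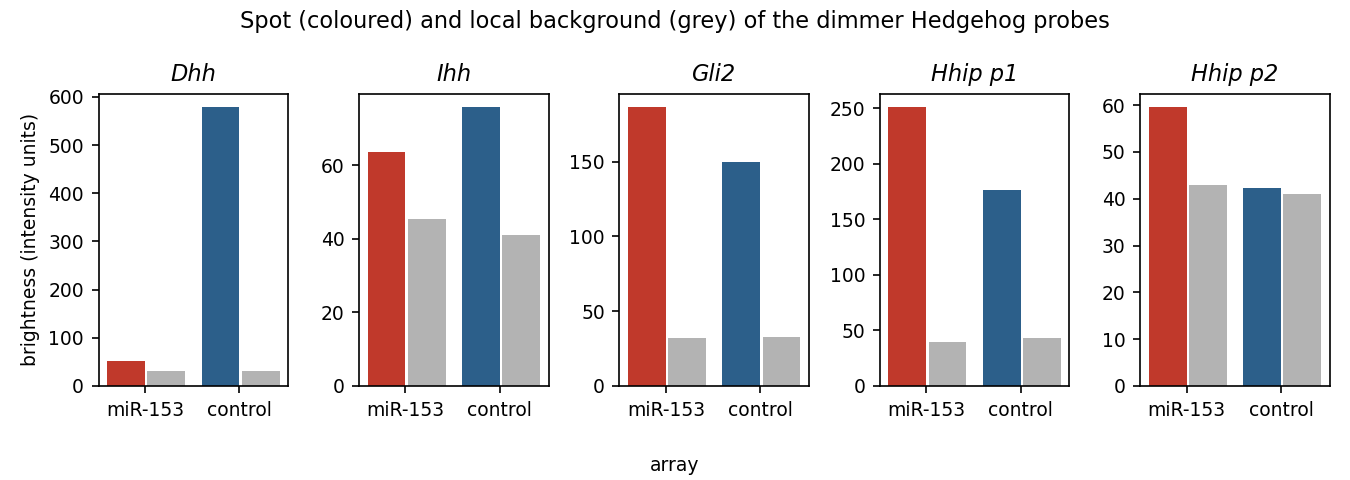
Brightness in intensity units of the spot (red on the miR-153 array, blue on the control array) and of its local background (grey) for the probes of Dhh, Ihh, Gli2 and Hhip, each panel with its own axis from 0. The Dhh spot reads 50.8 on the miR-153 array and 578 on the control array over a like background, while the Ihh spot and the dimmer Hhip probe (p2) stand close to background on both arrays.

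The receptor gene Ptch1, whose product restrains Smo and is induced by the pathway as feedback, did not differ beyond the spread of its own probes. Its probes were nearly equal in brightness, and the one with the slightly higher mean level (chromosome 13, 63612879 to 63612938) had signals of 1198 on the miR-153 array and 1034 on the control array, a difference of -0.12 after scaling. The other probe (63610298 to 63610357) had signals of 1314 on the miR-153 array and 936 on the control array, a difference of 0.15. The probes thus fell on either side of 0, and their mean was 0.01. The sign of the first probe turned to 0.11 with spike-in scaling. With quantile normalization and with normexp the second probe became the brightest and stood for the gene, at 0.13 and 0.17.

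Smo, the membrane protein that passes the signal inward, was the member whose probes disagreed most among those measured on both arrays. The brighter probe (chromosome 6, 29711225 to 29711284) had signals of 14099 on the miR-153 array and 11526 on the control array, a difference of -0.05, which turned positive under spike-in scaling (0.19), quantile normalization (0.14) and lowess (0.22). The dimmer probe (29710919 to 29710978) had signals of 3182 on the miR-153 array and 1224 on the control array, a difference of 1.04 or 2.06-fold higher. Both were well above background on both arrays and both match the transcript NM_176996, at positions 3835 and 3529. The probes lie 306 bases apart in the transcript and 306 bases apart in the genome, so no intron lies between them. Their gap of 1.09 lay at the 90th percentile of gaps between the 2 brightest probes of a gene. By the rule of the brightest probe Smo was not called, and the mean of both probes was 0.50.

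Hhip, which binds ligand at the cell surface and is a target of the pathway, had a brighter probe (chromosome 8, 82494280 to 82494339) with signals of 239 on the miR-153 array and 155 on the control array. The difference was 0.29 (1.22-fold higher). The other probe (82490729 to 82490788, 3551 bases further along the transcript) cleared background in miR-153 cells alone. Its level of -4.58 there lay below -4.34, the dimmest level that cleared background in control cells, so no bound could be given and no difference is shown.

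**Figure D3:**
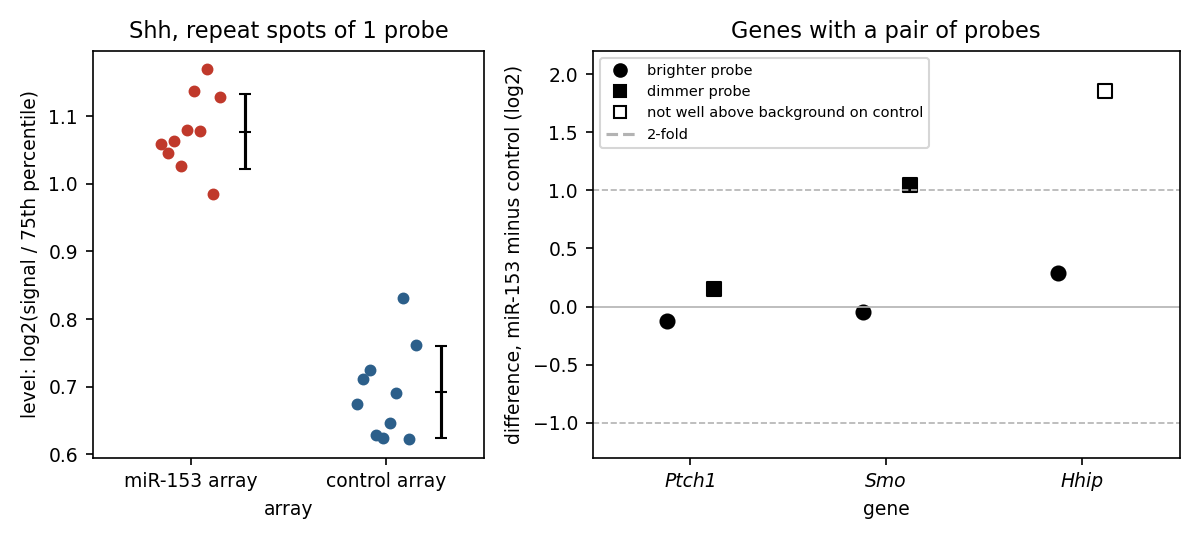
Left, level of Shh (log2 of signal over the 75th percentile) in each of 10 repeat spots on the miR-153 array (red) and the control array (blue), with mean and SD beside them. Right, difference in log2 units (miR-153 minus control) of the first (circle) and second (square) probe by mean level of Ptch1, Smo and Hhip with dashed lines at 2-fold. The Shh spots do not overlap, the Ptch1 probes lie near 0, the Smo probes lie at -0.05 and 1.04, and the open square of Hhip did not clear background in control cells, so that its height shows no difference.

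The Gli factors were all measured on both arrays, each by 1 probe. Gli1, the activator that is also the most used readout of the pathway, had signals of 4044 on the miR-153 array and 2787 on the control array (chromosome 10, 126766967 to 126767026). Its difference was 0.20, or 1.15-fold higher. Gli2, the main activator, had signals of 175 on the miR-153 array and 129 on the control array (chromosome 1, 120731255 to 120731314), a difference of 0.11 that turned to -0.04 with normexp. Gli3, the main repressor, had signals of 2377 on the miR-153 array and 1178 on the control array (chromosome 13, 15821502 to 15821561). At 0.68, or 1.60-fold higher, its difference was the largest of the 3 Gli genes and of all members measured on both arrays on their brightest probe except Ihh, and ran from 0.66 to 0.92 over the alternatives. The sign of Gli1 and Gli3 was positive under every alternative tried.

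Other genes of the pathway were followed through 5 lists with 52 genes, 50 of them measured on both arrays. Of these, 13 (26%) passed 2-fold upward in miR-153 cells, 2 (4%) passed it downward and 35 lay between. Among all genes measured on both arrays 9.22% were higher and 11.1% lower. The lists were chosen with earlier results of these data known, so these shares are descriptive and enrichment was not tested. The median difference was 0.21 over the lists and -0.11 over all genes.

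The genes that lipidate, release or bind ligand outside the cell had the highest median of the 5 lists, with 4 of 7 higher, none lower and a median of 1.21. Scube genes encode secreted proteins that help ligand leave the cell. Scube3 had a level of 0.21 on the miR-153 array and -1.85 on the control array, a difference of 2.06 or 4.17-fold. Scube2 differed by 1.77 on its brighter probe and by -0.10 on its other measured probe, so that the mean of both, 0.84, was short of 2-fold. Scube1 differed by 1.21, or by 0.85 with normexp. Gpc3, a glypican that competes for ligand, differed by 1.31. Gpc3 and Scube3 have 2 probes each, of which 1 was measured on both arrays. The acyltransferase gene Hhat (-0.29, and 0.33 on its other probe), the ligand exporter gene Disp1 (0.77) and the glypican gene Gpc6 (-0.67) were not called.

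Of 5 co-receptor and membrane genes, 1 was higher, none was lower and the median was -0.09. Boc, a co-receptor that presents ligand to Ptch1, had a level of 0.02 on the miR-153 array and -1.27 on the control array, a difference of 1.29 or 2.44-fold. Its relatives in function, Cdon (0.45) and Gas1 (-0.91), were not called, and the 3 probes of Gas1 ran from -0.91 to -0.20. Cdon has 2 probes, of which 1 was measured on both arrays.

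Intracellular transduction genes had 2 of 16 higher, none lower and a median of 0.10. Btrc, a ubiquitin ligase subunit that directs the processing of Gli3, differed by 1.32, with its other probe at 1.02. Stk36, the homologue of the Drosophila pathway kinase Fused, differed by 1.23. The restraining genes Sufu (-0.75, dim on both arrays), Kif7 (-0.19) and Gpr161 (-0.45) were not called. Stk36, Sufu and Kif7 have 2 probes each, of which 1 was measured on both arrays. The kinase genes Prkaca (0.15), Prkacb (0.60), Gsk3b (0.22) and Csnk1a1 (0.20) were not called either. Another Gsk3b probe was at 1.18 and the other Csnk1a1 probe at -0.33. Over this list 9 differences lay above 0 and 7 below. Cilium genes had 2 of 10 higher, none lower and 9 of 10 differences above 0, with a median of 0.58. Bbs2, of the ciliary membrane transport complex, differed by 1.22 (0.89 with normexp). Ift172, of the transport trains inside the cilium, had levels of 0.65 on the miR-153 array and -0.35 on the control array, just past 2-fold, and a difference of 0.90 with normexp.

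Genes reported as Hedgehog targets in other systems went both ways. Sfrp1, Mycn, Foxa2 and Igf2 were higher (4 of 13 measured), Ccnd1 and Foxm1 lower (2 of 13), and the other 7 lay between. The median was 0.05. Sfrp1, which encodes a secreted Wnt-binding protein, differed by 2.63 (6.19-fold), or 1.74 with normexp. Mycn, a driver of progenitor growth, differed by 1.56, the floor plate factor gene Foxa2, which the floor plate list holds too, by 1.44, and the growth factor gene Igf2 by 1.25, or 0.47 with normexp. The lower members were Ccnd1, the cyclin of entry into the cell cycle, with a level of 2.45 on the miR-153 array and 5.06 on the control array (-2.62, 6.13-fold lower), and Foxm1, a transcription factor of mitosis, at -2.21, with its other probe at -1.97. The ventral patterning genes Nkx2-2 (0.84, and -0.26 on its other probe) and Nkx6-1 (0.05) were not called. Foxf1 and Foxl1 did not clear background on either array.

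**Figure D4:**
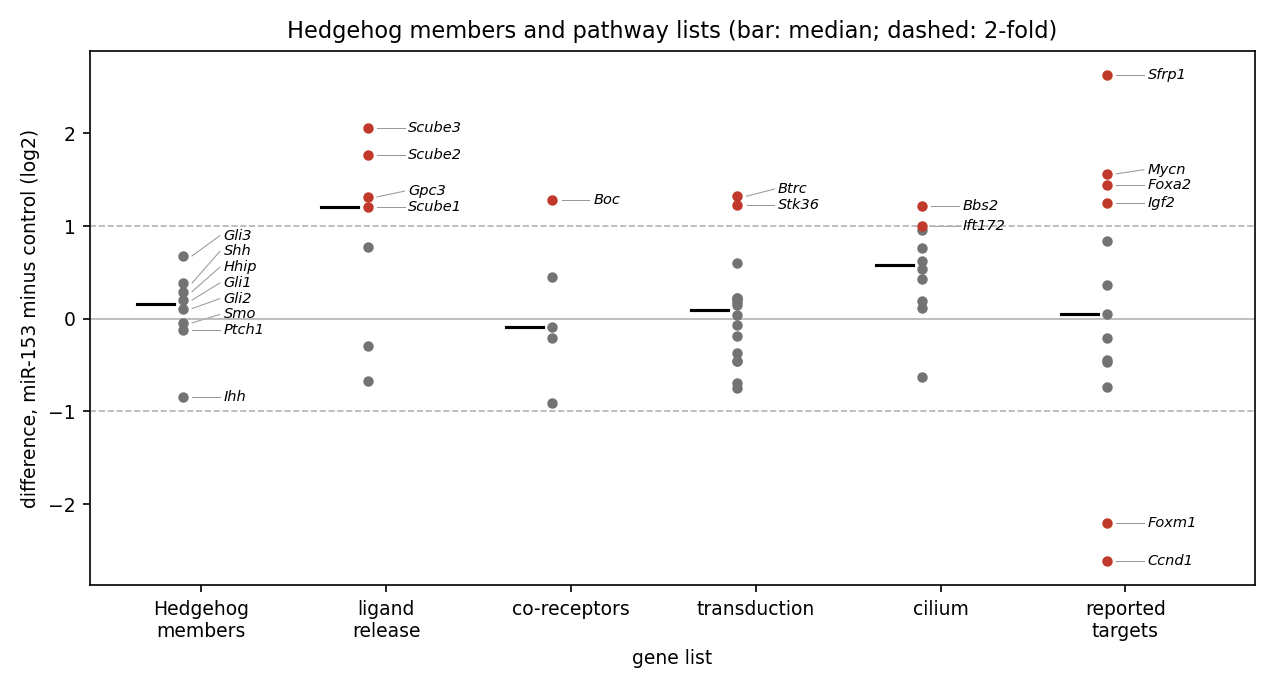
Difference in log2 units (miR-153 minus control) of each gene measured on both arrays, by list, with the median as a bar, dashed lines at 2-fold and red points past it. The 8 Hedgehog members lie between the dashed lines around a median of 0.16, the ligand release list has its median at 1.21, and the reported targets spread from -2.62 (Ccnd1) to 2.63 (Sfrp1).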

How the data were processed

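Gene expression was measured on 1-colour Agilent arrays, 1 per group. The authors deposited scanner intensity values, background-subtracted on a linear scale per the file headers, and the submitters' processing notes name Agilent Feature Extraction, version 10.7.3.1. The deposited series table holds the same intensity divided by 1 constant per array, 485 for miR-153 and 381 for control, with no centring, and was an alternative only. Probe positions are those in the files (mm9), and whether a probe lies in an exon or UTR was not analysed here.

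Levels were log2 of processed signal over the 75th percentile of non-control spots of each array. Spots flagged as outliers (229, none of a member) were left out, repeat spots averaged, and 26296 of 55674 probes named through RefSeq. The brightest probe stood for a gene. With 1 array per group, no test was possible, and the number of arrays limits precision. The members, lists and rules were chosen with earlier results of these data known. Named genes were all members and every pathway gene past 2-fold. Other pathway genes were named for their role, after their values were seen, and so were all markers. Some genes of the lists are not reported here by name, though the pathway counts include them. Likeness of pattern was not computed, since 2 arrays give none. Scripts were tested on simulated data. Alternatives used limma 3.58.1 in R 4.3.3 (normexp, offset 50, and quantile), statsmodels 0.14.6 (lowess), spike-in scaling, the series table, other probe rules, filters and a 1.5-fold rule.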

Additional observations from a re-analysis of the deposited data

How the results depend on the processing

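No paired analysis was possible because each group has 1 array. Among 10 alternatives, 6 or 7 members lay above the median of all genes, of 8 that cleared background (7 with bright probes only, 9 with no filter on dim probes). The 1.5-fold rule called 1 member higher (Gli3), 2 lower (Dhh and Ihh) and 8 pathway genes lower. With bright probes only, 0 members were lower, because Dhh was not measured there. Pathway genes called higher ranged from 9 with normexp to 19 with the 1.5-fold rule. Of 26 named differences, 23 kept their sign under every alternative run, and those of Ptch1, Smo (the brightest probe of each) and Gli2 turned under at least 1, Ptch1 in part because its other probe became the brightest. Spike-in scaling added 0.24 to every difference, putting the median of all genes at 0.13, with 6 of 8 members above it. It made 64.6% of called genes higher, against 45.5% in the main setting. Normexp called 1199 genes higher, against 1888 in the main setting, and no filter on dim probes called 3607 higher and 4371 lower, against 1888 and 2265. The 1.5-fold rule called 3800 higher and 5045 lower. Signal over background limits Dhh, Ihh and the dimmer Hhip probe, and disagreement between probes limits Smo and Ptch1. The spread between cultures could not be measured with 1 array per group.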

Other observations

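The protein-coding genes on either side of Dhh on chromosome 15 did not share its difference. Lmbr1l had a level of 3.43 on the miR-153 array and 2.62 on the control array (difference 0.81), and Rhebl1 had 0.37 on the miR-153 array and -0.03 on the control array (0.40). Both are well above background on both arrays and were picked by position.

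Relatives of the members outside the gene-name rule were read as well, and were chosen after values of the members were seen. Disp2, a relative of the ligand exporter gene Disp1, was higher, with a level of 0.22 on the miR-153 array and -1.69 on the control array (difference 1.91). Of the Hhip-like genes, Hhipl2 and the brightest of 3 Hhipl1 probes cleared background in miR-153 cells alone, at -4.49 and -4.65, too dim for a bound. A probe named 9530036O11Rik, whose description in the file names sonic hedgehog, was not well above background on either array and adds nothing to the Shh value.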
